A study of Mus musculus with 42 samples.

Results

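The 8 genes described here encode the enzymes that make prostaglandins, thromboxane and leukotrienes from arachidonic acid: Pla2g4a, Ptgs1, Ptgs2, Ptges, Hpgds, Tbxas1, Alox5 and Alox5ap. They were chosen by symbol from 21897 protein-coding genes of the mouse annotation, a rule that uses no measured value, although the set was drawn up with earlier results of these data known. Chromatin immunoprecipitation with sequencing had been carried out on bone marrow-derived macrophages (BMDMs) with antibodies against RNA polymerase II (Pol II) and against H3K27ac, the acetylated lysine 27 of histone H3 that is found at enhancers and promoters in use. The cells came from male C57Bl6/J mice of 6 to 12 weeks, either wild type (WT) or lacking the nuclear receptor Nur77, which is encoded by Nr4a1 (KO), and were grown for 7 days in L929-conditioned medium. They were left without lipopolysaccharide (LPS, the endotoxin of Gram-negative bacteria, sensed by a Toll-like receptor) or given 100 ng/ml LPS for 1 or 18 h, which makes 6 groups: WT at 0, 1 and 18 h and KO at 0, 1 and 18 h. Each group held 3 Pol II libraries, 3 H3K27ac libraries and 1 input library without immunoprecipitation, 42 libraries in all. According to the study's methods the KO mice came from a cross of mice with a loxP-flanked Nr4a1 gene to mice with Cre under a cytomegalovirus promoter, so the deletion was present in the whole body and throughout differentiation. Cre was then bred out, and WT littermates served as controls. The genotype label of the KO libraries reads only "cre", and what Cre contributes to any difference was not tested. The study's methods speak of biological replicates, but the labels do not say that the 3 libraries of a group came from separate animals or cultures, so p-values measure the spread between these libraries, which may be technical.

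Cytosolic phospholipase A2 releases arachidonic acid from membranes, and the cyclooxygenases and 5-lipoxygenase compete for it. The cyclooxygenases turn it into prostaglandin H2, from which separate synthases make prostaglandin E2, prostaglandin D2 and thromboxane A2, whereas 5-lipoxygenase, with its activating protein, starts the leukotriene branch. In macrophages given LPS the inducible cyclooxygenase and the inducible prostaglandin E synthase are classic induced genes, and prostaglandin E2 shapes fever, pain, vessel tone and the cytokine output of the macrophage itself.

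For Pol II, a gene's value is the number of normalized tags (tags per 10 M, or mega, tags of the library) in enriched regions between 500 bp before its start and 500 bp past its end, a region that lay partly inside being shared by its overlap. Sharing spreads a region's tags evenly, so a window inside a broad region holds that region's mean density and cannot place a difference at the start or in the body of a gene. This holds for the alternative window within 500 bp of the start, and for H3K27ac starts inside broad regions. The H3K27ac value at a start is the same sum within 2500 bp of it. A value of 0 means that no region passed the search in that library, not that no reads fell there. Depth was 21.7 to 36.1 M tags in the Pol II libraries, 13.5 to 31.1 M in the WT and 23.6 to 55.4 M in the KO H3K27ac libraries, so in H3K27ac genotype and depth cannot be told apart. The H3K27ac libraries of KO at 1 h replicate 1 and KO at 18 h replicate 1 stood apart from their groups, as did Pol II WT at 0 h replicate 1, where 61.64% of tags lay in regions, and differences between the genotypes that are called only with or only without them are given both ways. The 1 input of KO at 18 h held 6.18% of its tags in regions against 11% to 19.76% in the other 5 inputs, and input values are given beside most of the genotype differences over members in Pol II. Macrophage markers had Pol II in every library (8 of 8 genes, summed level 19849 to 42378 normalized tags). The genotypes overlapped in this sum at 0 h. At 1 h it was 32113 to 33346 in WT and 22825 to 23616 in KO, and at 18 h 40698 to 42378 and 34686 to 36959. The mast cell list was at 0 in every library (0 of 6), and the fibroblast list reached at most 6.21. Other lists held some Pol II while the genes named here stayed at 0 in all groups: the neutrophil list summed to 0 to 60.5 (Ly6g, S100a9, Mpo and Elane at 0), the dendritic cell list to 25.4 to 73.2 (Cd209a and Dpp4 at 0) and the T cell list to 23.1 to 97 (Cd3e, Cd3g and Cd8a at 0). The platelet list, with Ppbp at 0, summed to 151 to 1041. In both genotypes the sums of these 4 lists were lower at 1 h than at 0 h in all libraries. Nr4a1 itself had Pol II values of 87.8, 76.1 and 70.2 in KO against 189, 188 and 208 in WT at 0 h (log2 difference -1.22, limma adjusted p = 1.4e-04). At 1 h the order was the opposite, 33.5, 39 and 36.6 in KO and 25.5, 23 and 30.4 in WT (0.36, adjusted p = 0.091), and at 18 h KO was at 0 and WT at 7.46, 5.98 and 0 (-0.49, adjusted p = 0.046). The values at 1 h thus show no loss of Nr4a1. The whole gene includes sequence outside a deletion of part of it and so is no full check of the genotype, and KO and WT stand for the groups as labelled.

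Before LPS, the members with the densest Pol II in WT were the prostaglandin D2 and thromboxane synthases and the 5-lipoxygenase activating protein. Per kb of gene, Hpgds stood at 54.5 ± 4.47 normalized tags (SD, n = 3), Tbxas1 at 36.2 ± 2.61 and Alox5ap at 33.3 ± 1.31, and the last 2 overlapped. Pla2g4a (2.65 ± 0.064 per kb) and Ptgs2 (2.5 ± 1.19 per kb) came next and overlapped each other, as did Alox5 (0.845 ± 0.264 per kb) and Ptgs1 (0.755 ± 0.158 per kb), and Ptges was listed at 0. After 1 h of LPS the order in WT was led by Ptgs2 with 164 ± 4.14 per kb, followed by Hpgds with 8.32 ± 0.854. At 18 h Ptgs2 still led in WT with 156 ± 4.36 per kb, ahead of Alox5ap with 37.9 ± 0.515, Hpgds with 34.7 ± 2.07, Tbxas1 with 31.9 ± 2.19 and Pla2g4a with 27.2 ± 0.52, of which only Hpgds and Tbxas1 overlapped. In KO at 18 h the level of Ptgs2 was 349 ± 33.6 per kb and Pla2g4a, at 41.3 ± 0.527 per kb, was second, ahead of Tbxas1 at 31.3 ± 1.46. These are levels per length, not differences, and the reads were counted without strand.

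Positions are those of the principal transcript on mm10 (the assembly GRCm38). Ptgs2 lies on the forward strand at chr1:150100031-150108227, and the non-coding gene Ptgs2os runs away from it on the other strand, its start lying 68 bp upstream. Pla2g4a is its neighbour on the reverse strand at chr1:149829618-149961290. Ptges (reverse strand, chr2:30889471-30903297) and Ptgs1 (forward strand, chr2:36230426-36252272) share chromosome 2, and Tbxas1 (forward strand, chr6:38918980-39084585), Hpgds (reverse strand, chr6:65117293-65144908) and Alox5 (reverse strand, chr6:116410077-116461178) share chromosome 6. Alox5ap lies on the forward strand at chr5:149264767-149288153 and overlaps the antisense gene Gm19719, whose reads cannot be told from its own. Tbxas1 likewise overlaps the antisense genes 1700025N23Rik and Gm42962 and the small nucleolar RNA gene Gm23010, and its outermost annotated start, outside the principal transcript, overlaps the protein-coding gene Hipk2 on the other strand.

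The promoters of the members whose Pol II changed most, or changed differently in KO, are printed as the starts of the genes the results turn on. They run from 250 bases before to 50 after the start in RefSeq's table for GRCm38.p6, which holds 7 of the 8 members (not Alox5ap), and are written along the gene's own strand. Capitals mark matches, on either strand, to AP-1 (TGANTCA), the cyclic AMP element (TGACGTCA) or its core TGACG, the Nur77 site AAAGGTCA, NF-kB (GGG and CC with 5 bases between them), C/EBP (TTNNGNAA) and the TATA box (TATAAA).
Ptgs2 promoter, chr1:150099781-150100080, forward strand: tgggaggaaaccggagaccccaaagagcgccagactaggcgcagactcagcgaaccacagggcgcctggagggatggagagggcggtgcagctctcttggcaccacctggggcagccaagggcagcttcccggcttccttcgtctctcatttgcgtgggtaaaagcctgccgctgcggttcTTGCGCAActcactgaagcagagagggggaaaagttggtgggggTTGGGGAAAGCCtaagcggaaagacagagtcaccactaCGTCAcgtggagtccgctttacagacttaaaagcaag
Pla2g4a promoter, chr1:149961241-149961540, reverse strand: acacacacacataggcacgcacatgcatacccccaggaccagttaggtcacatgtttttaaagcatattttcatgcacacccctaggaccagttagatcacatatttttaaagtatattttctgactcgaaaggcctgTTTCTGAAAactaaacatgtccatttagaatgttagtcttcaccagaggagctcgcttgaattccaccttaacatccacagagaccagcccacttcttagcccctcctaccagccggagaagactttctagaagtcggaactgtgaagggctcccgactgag
Tbxas1 promoter, chr6:38918736-38919035, forward strand: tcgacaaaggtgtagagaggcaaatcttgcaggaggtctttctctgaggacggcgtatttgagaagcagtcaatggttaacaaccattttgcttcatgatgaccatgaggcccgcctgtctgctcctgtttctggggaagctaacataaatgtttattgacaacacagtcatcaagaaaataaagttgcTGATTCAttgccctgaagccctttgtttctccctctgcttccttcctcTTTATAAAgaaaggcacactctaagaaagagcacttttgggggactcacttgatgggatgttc
Hpgds promoter, chr6:65144681-65144980, reverse strand: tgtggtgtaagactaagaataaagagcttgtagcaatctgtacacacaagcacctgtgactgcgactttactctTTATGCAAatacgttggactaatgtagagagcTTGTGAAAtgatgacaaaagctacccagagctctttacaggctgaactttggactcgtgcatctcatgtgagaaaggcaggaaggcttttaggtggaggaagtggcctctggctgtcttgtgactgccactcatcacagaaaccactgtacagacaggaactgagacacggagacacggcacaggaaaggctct
In the Ptgs2 promoter, C/EBP letters began at positions -69 and -25 from the start, the second overlapping an NF-kB match at -23, and the core of the cyclic AMP element lay at 13. Pla2g4a held a pair of overlapping C/EBP matches at -112 and -111. The Tbxas1 promoter held an AP-1 match at -61 and TATA matches at -13 and -11, and the table's start lies 6 bp from the principal start. Hpgds, whose start in the table lies 178 bp from the principal one, held C/EBP matches at -176 and -144. Of 32851 promoters of this length, 40.7% held the C/EBP letters, 50.8% NF-kB, 20.8% the TGACG core, 13.6% TATAAA, 7.81% AP-1, 1.79% the full cyclic AMP element and 1.51% the Nur77 site. Neither of the last 2 was found in any of the member promoters, which says only that these letters are not in these windows.

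Within 1 h of LPS in WT, Pol II tags rose over the release enzyme, the inducible cyclooxygenase and the inducible prostaglandin E synthase. They fell over the constitutive cyclooxygenase, the prostaglandin D2 and thromboxane synthases and both leukotriene genes. Pla2g4a and Alox5 lay below their inputs before and after this hour, and Ptgs1 was close to the detection limit. All 8 members were called (3 higher, 5 lower) at an adjusted p under 0.05 in limma, the test used throughout, against 86.5% of all 13088 genes tested. The median log2 change was -1.89 over the members and -0.81 over all genes, of which 21.5% of those called were higher (49.9% once each library was centred on its median). A fall in these bulk samples is a smaller share of a library's tags in enriched regions. A smaller share of cells carrying Pol II there and less of it per cell are among its possible readings, which cannot be told apart.

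**Figure D1:**
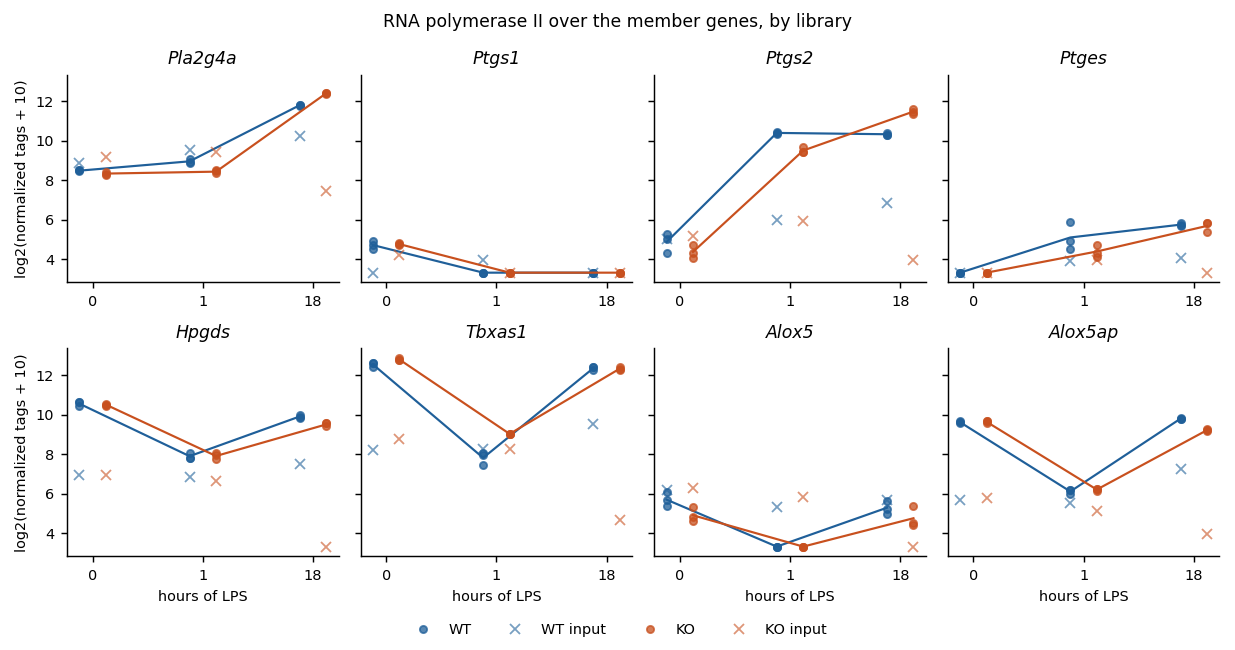
Pol II over the 8 genes by hours of LPS (0, 1 and 18 h), 1 panel per gene, as log2(normalized tags + 10). Points are single libraries of WT (blue) and KO (orange), lines join the group means and crosses are the 1 input library per group. Ptgs2 stood at 1255 normalized tags or more in WT at both times after LPS, and in KO went from 675 to 801 at 1 h to 2622 to 3164 at 18 h.

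Ptgs2, the inducible cyclooxygenase, went in WT from 22.8, 28.8 and 9.78 normalized Pol II tags at 0 h to 1304, 1355 and 1368 after 1 h of LPS and 1266, 1255 and 1321 after 18 h. The lowest library after LPS was far above the highest before it, and the values at 1 and 18 h overlapped. On the log2(value + 10) scale the change was 5.53 ± 0.19 (SE) at 1 h (46.1-fold, adjusted p = 2.0e-14) and 5.46 ± 0.19 at 18 h (adjusted p = 4.9e-14). At 0 h the WT values lay on both sides of the input value of 23.1.

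Pla2g4a encodes cytosolic phospholipase A2. Its WT libraries held 352, 356 and 340 normalized tags before LPS, then 484, 453 and 532 after 1 h of it and finally 3505, 3581 and 3642 after 18 h. The late rise set all 3 libraries at 18 h apart from the rest, while the values at 0 and 1 h were below those of the inputs (454 and 734) and only those at 18 h were above theirs (1222). The log2 change was 0.47 ± 0.07 at 1 h (adjusted p = 3.3e-06) and 3.32 ± 0.07 at 18 h (9.99-fold, adjusted p = 2.8e-17). Enriched regions covered 11.7% to 13.7% of the gene at 0 h and 99.4% to 99.6% of it at 18 h. In the window within 500 bp of the start, which at 18 h holds only the mean density of a region over the whole gene, the change at 18 h was -0.25.

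The terminal synthases went apart. Tbxas1, thromboxane synthase, had 5502, 6231 and 6272 normalized tags in WT before LPS, then 254, 166 and 237 after 1 h of it and finally 4860, 5524 and 5447 after 18 h. Every library at 1 h was below the input value of 297, and the values at 18 h overlapped those at 0 h. The log2 change was -4.74 ± 0.11 at 1 h (26.6-fold lower, adjusted p = 8.2e-17) and -0.19 ± 0.11 at 18 h (adjusted p = 0.14). The sum of the platelet markers fell and came back in WT as well, with 897 to 1041 at 0 h, 157 to 338 at 1 h and 587 to 771 at 18 h. In KO it was 829 to 939, 160 to 164 and 151 to 486, while Tbxas1 came back there too. Their part in the values of this platelet-expressed enzyme was not tested.

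Hpgds, the hematopoietic prostaglandin D synthase, held 1364, 1581 and 1574 normalized tags before LPS, then 218, 257 and 215 after 1 h of it and finally 920, 929 and 1023 after 18 h. Its 3 times did not overlap, and the return at 18 h was partial. The change was -2.66 ± 0.09 at 1 h (6.33-fold lower, adjusted p = 2.0e-14) and -0.65 ± 0.09 at 18 h (adjusted p = 7.0e-06). Ptges, the inducible prostaglandin E synthase, was listed at 0 in every library before LPS, at 20.7, 12.7 and 48.5 at 1 h and at 41.9, 47.3 and 42.9 at 18 h. Because WT at 0 h is listed at 0, its log2 changes of 1.78 ± 0.25 (adjusted p = 3.9e-06) and 2.43 ± 0.25 (adjusted p = 1.6e-07) are set by the added 10 and no fold is given.

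The annotation of Ptges reaches 26566 bp further upstream through a non-coding transcript, and over that whole annotated gene, a window chosen after seeing the data, WT held 144, 130 and 185 normalized tags before LPS, then 1836, 1726 and 1894 after 1 h of it and finally 916, 965 and 815 after 18 h. In that window the peak was at 1 h and not at 18 h, so the order of the times over Ptges depends on which transcript is taken. The H3K27ac region upstream of Ptges covers that outer start.

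On the leukotriene side, Alox5ap, which presents arachidonic acid to 5-lipoxygenase, held 753, 813 and 771 normalized tags in WT before LPS, then 62.4, 52.7 and 63.2 after 1 h of it and finally 887, 872 and 896 after 18 h. All values at 1 h were far below the others, and those at 18 h were above those at 0 h. The log2 change was -3.51 ± 0.08 at 1 h (11.4-fold lower, adjusted p = 4.3e-17) and 0.18 ± 0.08 at 18 h (adjusted p = 0.043), the latter being -0.16 after quantile normalization. Alox5, 5-lipoxygenase itself, had only 31, 40.9 and 57.6 at 0 h, was listed at 0 at 1 h and held 27.8, 40.4 and 21.6 at 18 h, at every time below the inputs (63.2, 30.2 and 41.3). Its log2 change of -2.38 ± 0.25 at 1 h (adjusted p = 9.6e-08) passed and that of -0.41 ± 0.25 at 18 h (adjusted p = 0.16) did not.

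Ptgs1, the constitutive cyclooxygenase, was close to the detection limit: 16.2, 20.1 and 13.2 normalized tags in WT at 0 h and 0 in every library of either genotype at 1 and 18 h. Its log2 change of -1.40 ± 0.11 was called at both times (adjusted p = 2.7e-09 and 5.6e-09) and is set by the added 10. At 18 h against 0 h in WT, 6 of 8 members were called (4 higher, 2 lower), where 66.4% of all genes were. Between 1 and 18 h 6 of the 7 members tested were called, all higher (85.0% of all genes called, with a median of 0.80), and Ptgs2 was the one that was not (log2 change -0.07 ± 0.19, adjusted p = 0.74). The comparisons at 1 and at 18 h share the libraries at 0 h.

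In KO, Ptgs1, Tbxas1, Hpgds, Alox5 and Alox5ap fell at 1 h and Ptgs2 and Ptges rose, so that 7 of 8 members were called (82.3% of all genes). Pla2g4a was the exception, at 296, 334 and 314 normalized tags at 0 h and 340, 353 and 319 at 1 h (log2 change 0.10 ± 0.07, adjusted p = 0.18). At 18 h 7 of 8 were called against 0 h (3 higher, 4 lower; 69.7% of all genes), led by Ptgs2 with a log2 change of 7.11 ± 0.19 (138-fold) and Pla2g4a with 4.07 ± 0.07 (16.8-fold). Both lay below their inputs before LPS, and the size of the Ptgs2 fold depends on the added 10. Alox5ap fell in KO between 0 and 18 h (-0.42 ± 0.08, adjusted p = 9.8e-05; 0.25 in the window within 500 bp of the start), as did Tbxas1 (-0.46 ± 0.11, adjusted p = 0.0012), and Alox5 was the exception (-0.15 ± 0.25, adjusted p = 0.61). Between 1 and 18 h all 7 members tested were higher (79.0% of all genes called), Ptgs2 among them (1.98 ± 0.19, adjusted p = 3.4e-08).

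Without LPS, 0 of the 7 members tested were called between the genotypes by limma, 4 having an unadjusted p under 0.05 (6.81% of all genes were called). Those 4 were Alox5 (log2 difference KO minus WT -0.79, 95% interval -1.32 to -0.27), Ptgs2 (-0.50, -0.90 to -0.10), Pla2g4a (-0.15, -0.29 to -0.01) and Tbxas1 (0.25, 0.02 to 0.48). For the other 3 the intervals lay within 0.28 of 0: Alox5ap 0.02 (-0.14 to 0.18), Hpgds -0.05 (-0.24 to 0.14) and Ptgs1 0.05 (-0.19 to 0.28). Ptgs2 held 6.85, 9.8 and 16.6 normalized tags in KO and Alox5 30.3, 17.8 and 14.2, both with input values above them (26.2 and 69.3). Alox5 was called when libraries were centred (-0.81) or quantile normalized (-0.90), and without WT at 0 h replicate 1 (-0.97). With inputs subtracted Ptgs1 turned lower in KO, and more members were called.

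After 1 h of LPS, KO cells carried less Pol II over Ptgs2, Pla2g4a and Ptges and more over Tbxas1. Of the 6 members tested 4 were called (1 higher, 3 lower), where 44.9% of all genes were. The median difference of all genes was 0.24, with 83.3% of the genes called higher in KO (40.4% once libraries were centred). Ptgs1 and Alox5 were at 0 in both genotypes and were not tested.

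Ptgs2 at 1 h held 801, 686 and 675 normalized tags in KO against 1304, 1355 and 1368 in WT. Every KO library was below every WT library, with inputs of 50.9 and 53.4. The difference was -0.89 ± 0.19 on the log2 scale (1.86-fold lower, adjusted p = 0.0013) and stayed called under all 17 alternatives tried, where it ranged from -1.15 to -0.78. Pla2g4a held 340, 353 and 319 in KO against 484, 453 and 532 in WT, a difference of -0.52 ± 0.07 (adjusted p = 1.3e-05). These groups did not overlap either, although both lay below their inputs of 682 and 734.

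Tbxas1 was the member with more Pol II in KO at 1 h, 513, 516 and 509 normalized tags against 254, 166 and 237 in WT. The KO values were close together and lay above their input (303), while the WT values lay below theirs (297). The difference was 1.21 ± 0.11 (2.32-fold, adjusted p = 2.8e-07), and it was 0.99 over the whole annotated gene, 4.46 with inputs subtracted and 0.40 (not called) within 500 bp of the start. The size of 4.46 is set by the added 10, since every WT library lies below its input. Ptges held 16.8, 7.27 and 10.1 in KO against 20.7, 12.7 and 48.5 in WT, with overlap, and the call (-0.71 ± 0.25, adjusted p = 0.03) was held under 10 of 16 alternatives; over the whole annotated gene the difference was 0.14 (adjusted p = 0.28).

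Alox5ap at 1 h held 66.4, 66.5 and 59.5 in KO, close to the WT values (difference 0.10, 95% interval -0.06 to 0.26). Hpgds held 204, 254 and 237 in KO, again overlapping WT (0.01, -0.18 to 0.20). With libraries centred on their medians Hpgds was lower in KO (-0.25) and called.

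At 18 h the order had turned for 2 members: Ptgs2 and Pla2g4a now carried more Pol II in KO than in WT, and Alox5ap and Hpgds less. Of the 7 members tested 4 were called (2 higher, 2 lower), where 20.2% of all genes were. The median difference of all genes was -0.10, and 36% of the genes called were higher in KO (65% once libraries were centred).

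Ptgs2 at 18 h held 2805, 2622 and 3164 normalized tags in KO against 1266, 1255 and 1321 in WT. Every KO library was far above every WT library, and the inputs stood at 5.79 for KO against 105 for WT. The difference was 1.15 ± 0.19 (2.22-fold, adjusted p = 3.0e-04) and stayed called under all 17 alternatives, from 1.10 to 1.28. Enriched regions covered 100% of the gene in all of these libraries.

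Pla2g4a held 5504, 5441 and 5366 in KO against 3505, 3581 and 3642 in WT at 18 h, without overlap and with inputs of 163 and 1222. The difference was 0.60 ± 0.07 (1.52-fold, adjusted p = 4.1e-06), called under 16 of 17 alternatives and missed within 500 bp of the start (0.40). It was 1.16 with the inputs subtracted, and the part of the inputs in it was not otherwise tested. Lower in KO at 1 h and higher at 18 h, as Ptgs2 and Pla2g4a were, described 116 of the 11559 genes tested at both times, or 1.00%. The pattern was taken from these members themselves, and the share was counted without centring, which moves the direction of calls at both times.

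Alox5ap at 18 h held 570, 604 and 589 normalized tags in KO against 887, 872 and 896 in WT, and Hpgds 745, 745 and 674 against 920, 929 and 1023. Neither pair of groups overlapped. The differences were -0.58 ± 0.08 for Alox5ap (1.5-fold lower, adjusted p = 3.1e-05) and -0.40 ± 0.09 for Hpgds (1.32-fold lower, adjusted p = 0.0043). Their inputs were also lower in KO (5.53 against 140, and 0 against 175), and Hpgds was no longer called with inputs subtracted (-0.11), within 500 bp of the start or without replicate 3. Enriched regions covered 89.5% to 97.3% of Alox5ap in WT and 50.5% to 62.3% in KO. In the window within 500 bp of the start the difference was 0.37 (not called).

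Tbxas1, at 4972, 5445 and 5115 in KO, overlapped WT at 18 h (-0.03, 95% interval -0.25 to 0.20; inputs 15.6 and 729), as did Ptges at 48, 31.3 and 47.6 (-0.06, -0.59 to 0.47) and Alox5 at 11.4, 31.1 and 12.6 (-0.53, -1.06 to -0.01, adjusted p = 0.14; inputs 0 and 41.3). With inputs subtracted Tbxas1 and Alox5 turned higher in KO, the WT values of Alox5 all lying below their input. Over the whole annotated Ptges gene KO held 1334, 1142 and 1089 against 916, 965 and 815, all higher in KO (0.40, adjusted p = 0.014), with inputs of 6.82 and 127.

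**Figure D2:**
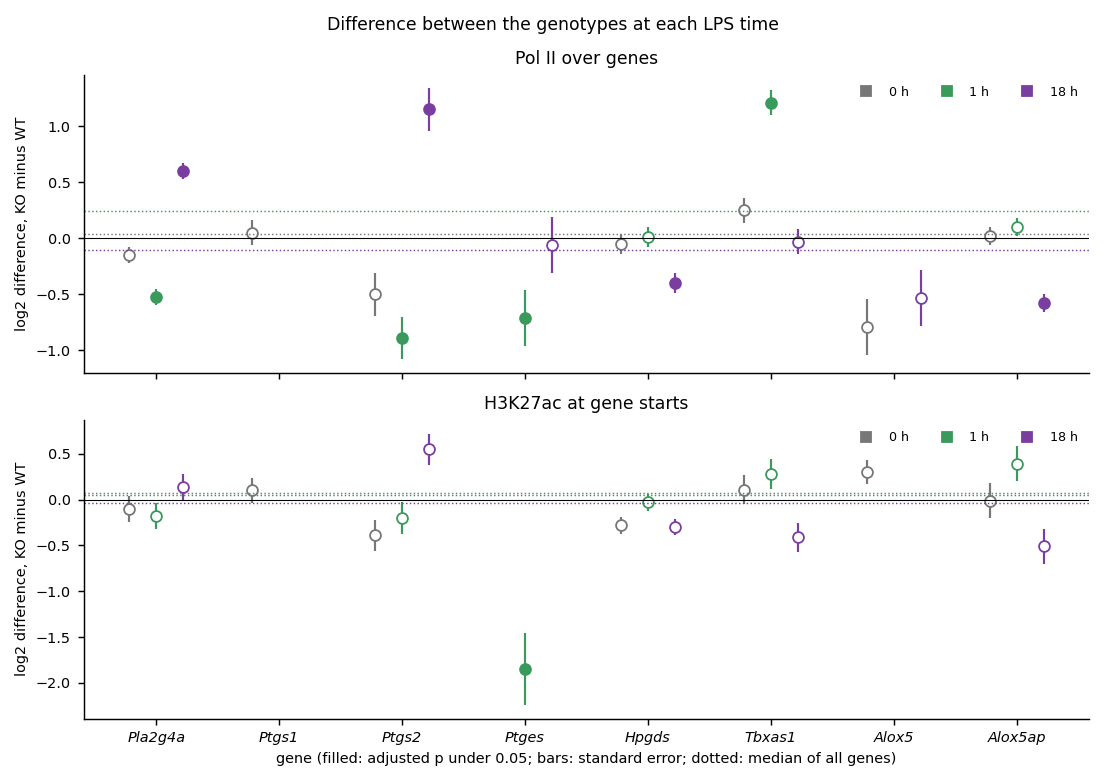
Difference between the genotypes (KO minus WT, log2 scale, vertical axis) for each gene (horizontal axis) at 0 h (grey), 1 h (green) and 18 h (purple) for Pol II over genes (upper panel) and H3K27ac at gene starts (lower panel). Bars are standard errors, filled points have an adjusted p under 0.05 and dotted lines are the medians of all genes. Ptgs2 goes from -0.89 at 1 h to 1.15 at 18 h in Pol II.

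Whether LPS acted differently in the genotypes was tested with interaction terms, which share the 0 h libraries. At 1 h, 2 of 8 members were called (17.7% of all genes): the response of Pla2g4a was smaller in KO (-0.38 ± 0.09, adjusted p = 0.011) and the fall of Tbxas1 was shallower (0.97 ± 0.15, adjusted p = 4.5e-04). The term for Pla2g4a was lost without replicate 2 and without replicate 3, and both terms within 500 bp of the start. All Pla2g4a values at 0 and 1 h lay below their inputs, so with inputs subtracted its term could not be tested. At 18 h 3 of 8 were called (14.1%): Ptgs2 (1.65 ± 0.27, adjusted p = 4.8e-04), Pla2g4a (0.75 ± 0.09, adjusted p = 3.7e-05) and Alox5ap (-0.61 ± 0.11, adjusted p = 0.0011). The last was -0.37 and not called with inputs subtracted, and it was lost within 500 bp of the start (0.01), as was that of Pla2g4a. The genotype difference at 18 h set against that at 1 h, a contrast added after seeing the data, was called for 5 of 7 members (39.0% of all genes): Ptgs2 (2.04 ± 0.27, adjusted p = 2.5e-05), Pla2g4a (1.13 ± 0.09, adjusted p = 2.0e-07), Tbxas1 (-1.24 ± 0.15, adjusted p = 1.3e-05), Alox5ap (-0.68 ± 0.11, adjusted p = 1.6e-04) and Hpgds (-0.41 ± 0.13, adjusted p = 0.018). That of Hpgds was called under 11 of 17 alternatives and was -0.02 once libraries were centred. Within 500 bp of the start that of Tbxas1 was not called, and that of Alox5ap turned (0.30, not called).

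H3K27ac at the starts followed LPS over most members in WT, rising at Ptgs2 and falling at Ptgs1, Tbxas1, Alox5ap, Alox5 and Hpgds. At 1 h 7 of 8 were called (2 higher, 5 lower; 54.9% of all starts tested), at 18 h 6 of 7 (2 higher, 4 lower; 49.8%), and between 1 and 18 h 6 of 6 (5 higher, 1 lower; 57.5%). In KO, 1 h of LPS gave 6 calls of 8 (1 higher, 5 lower; 46.8%), 18 h gave 6 of 7 (2 higher, 4 lower; 52.5%) and 4 of 6, all higher, were called between 1 and 18 h (44.6%).

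Ptgs2 held 22.5, 27 and 22.4 normalized H3K27ac tags at its start in WT before LPS, then 111, 88.8 and 84.8 after 1 h of it and finally 179, 140 and 130 after 18 h. The 3 times did not overlap, with log2 changes of 1.62 ± 0.17 at 1 h (adjusted p = 9.6e-07) and 2.22 ± 0.17 at 18 h (adjusted p = 2.8e-08). Pla2g4a moved late, from 259, 266 and 248 at 0 h and 308, 302 and 298 at 1 h to 656, 523 and 609 at 18 h. Its change was 0.22 ± 0.14 at 1 h (adjusted p = 0.17) and 1.17 ± 0.14 at 18 h (adjusted p = 3.2e-06), so at this gene too the rise belonged to 18 h.

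At Tbxas1 the mark went from 532, 590 and 585 to 136, 145 and 144 and back to 407, 433 and 428, a change of -1.93 ± 0.16 at 1 h (adjusted p = 7.6e-08) and -0.42 ± 0.16 at 18 h (adjusted p = 0.037). Alox5ap went from 389, 479 and 466 to 151, 195 and 154 and back to 486, 497 and 407 (-1.37 ± 0.19 at 1 h, adjusted p = 2.3e-05). Both starts had lost part of the mark at 1 h in every library and had it back, close to the level before LPS at Alox5ap (0.06 ± 0.19 at 18 h, adjusted p = 0.82) and partly at Tbxas1. At the outermost annotated start of Tbxas1 the mark did not fall at 1 h, with 547, 578 and 629 at 0 h, 646, 635 and 661 at 1 h (0.15, adjusted p = 0.2) and 492, 493 and 493 at 18 h, so the direction depends on which start is taken. That outer start overlaps Hipk2, and the mark of the one cannot be told from that of the other. Hpgds fell less, from 480, 610 and 568 to 334, 339 and 337 and then 427, 479 and 392 (-0.69 ± 0.09 and -0.34 ± 0.09). At Ptgs1 the mark was present only at 0 h (37.3, 28.1 and 42.6 in WT and 42.1, 38.3 and 36.3 in KO) and at Alox5 likewise (9.05, 7.35 and 7.72 in WT and 13.1, 9.09 and 14.7 in KO), both listed at 0 in all libraries after LPS.

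**Figure D3:**
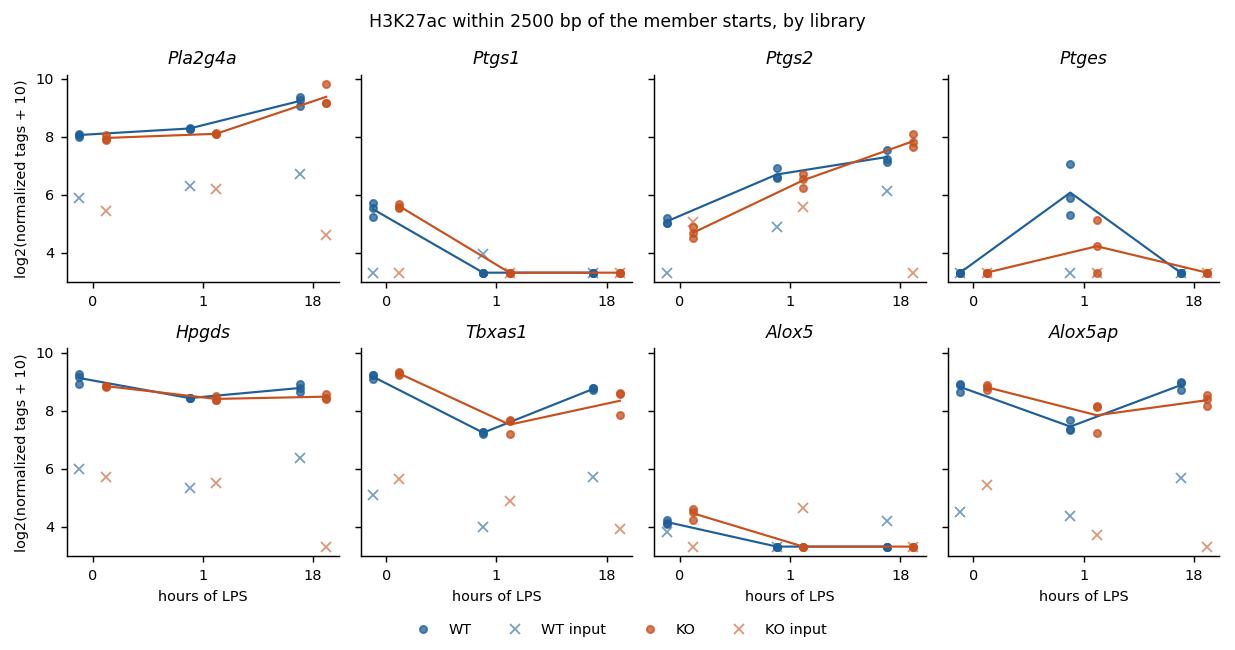
H3K27ac within 2500 bp of the start of the 8 genes by hours of LPS, drawn as for Pol II, as log2(normalized tags + 10), with WT in blue, KO in orange, lines through group means and crosses for the 1 input library per group. Tbxas1 and Alox5ap dip at 1 h in both genotypes, and Ptges has values above 0 at 1 h only.

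Between the genotypes few starts were called. At 0 h 0 of 7 members were called by limma (3 with an unadjusted p under 0.05; 0.724% of all starts called). At 1 h 1 of 6 was called (18.5%), namely Ptges, the WT libraries having 29.2, 48.9 and 124, the KO ones 25.3, 0 and 8.81, and 0 at the other times. Its WT libraries were all above its KO libraries but spread widely among themselves, and the difference of -1.85 ± 0.39 (adjusted p = 0.0072) was lost without replicate 2 or 3 and was -0.11 at the outermost annotated start. At 18 h 0 of 5 were called (4 with an unadjusted p under 0.05; 3.35%), and in the interactions 0 of 8 at 1 h (1 with an unadjusted p under 0.05; 0.507%) and 0 of 7 at 18 h (2; 0.586%).

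The Ptgs2 start at 18 h held 192, 215 and 263 in KO against 179, 140 and 130 in WT, each KO library being above each WT library. The difference of 0.55 (95% interval 0.19 to 0.90) had an adjusted p of 0.083 and was called without KO at 18 h replicate 1 (0.65), with inputs of 0 in KO and 60.9 in WT. Without KO at 1 h replicate 1, 3 members were called at 18 h, Ptgs2 (0.55), Alox5ap (-0.51, inputs 0 in KO and 40.9 in WT) and Hpgds (-0.30, inputs 0 and 73.8), and 3 at 1 h, Ptges, Alox5ap (0.69) and Tbxas1 (0.44). That library held 141 at Alox5ap and 138 at Tbxas1, against 272 and 276 and 197 and 193 in the other 2 of its group. Pla2g4a at 18 h held 895, 558 and 566 in KO, the first from the other library that stood apart, and overlapped WT (0.14, -0.14 to 0.43).

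Within 50 kb of the 8 starts lay 57 merged H3K27ac regions, out of 65218 in the genome, and 41 of them could be tested in at least 1 comparison. A region was called at an adjusted p under 0.05 and a log2 change beyond 1. In WT 22 of 37 were called at 1 h (4 higher, 18 lower; 40.8% of all regions), 12 of 36 at 18 h (5 higher, 7 lower; 38.9%) and 15 of 33 between 1 and 18 h (13 higher, 2 lower; 39.5%). In KO, 1 h of LPS gave 18 calls of 38 (3 higher, 15 lower; 27.3%), 18 h gave 16 of 39 (5 higher, 11 lower; 40.1%) and 9 of 33 were called between them (5 higher, 4 lower; 31.0%). Over all regions, 36.6% of those called at 1 h in WT were higher, as were 48.4% of those called between 1 and 18 h in WT and 38.9% of those called at 1 h in KO.

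Upstream of Ptges, 1.72 kb from its start, a region of 29.9 kb at chr2:30905021-30934968 held 731, 736 and 721 normalized tags in WT before LPS, then 3054, 3134 and 3196 after 1 h of it and finally 2633, 2603 and 2688 after 18 h. It covers the outermost annotated Ptges start and rose in every library by a log2 change of 2.09 ± 0.12 at 1 h (adjusted p = 1.3e-09). Against the small values at the principal start itself, this is where the mark around Ptges lay. In KO at 1 h it held 3023, 1991 and 2014, all below WT but short of the fold needed for a call (-0.44 ± 0.12, adjusted p = 0.012), and so it was without replicate 1, which stood apart (-0.64, adjusted p = 1.7e-07).

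Regions away from the starts, chosen as those with the largest changes in WT, fell strongly at 1 h. A region 11.7 kb upstream of Ptgs1 (chr2:36214031-36218751) went from 298, 281 and 273 to 25.9, 19.6 and 28.3 (-3.09 ± 0.21, adjusted p = 1.2e-08), and one 40.6 kb downstream (chr2:36271008-36273745) from 66.2, 76.5 and 62.7 to 0 (-2.97 ± 0.30). Inside Alox5, 42.7 kb from its start, a region went from 77.2, 77.3 and 59.2 to 10.7, 0 and 0 (-2.66 ± 0.50, adjusted p = 2.2e-04). Around Alox5ap a region 28.3 kb upstream went from 105, 121 and 91.9 to 0, 17.8 and 12.2 (-2.65 ± 0.39) and one 17.6 kb into the locus from 280, 250 and 256 to 41.1, 70.6 and 53.9 (-2.08 ± 0.22).

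Of the 20.6 kb region inside Tbxas1, 16.1 kb past its start, 2805, 3009 and 2791 normalized tags at 0 h left 845, 758 and 795 at 1 h (-1.83 ± 0.23, adjusted p = 4.6e-06), and 2429, 2436 and 2448 had come back at 18 h. A small region 5.16 kb upstream of Tbxas1 went from 23.1, 36.1 and 10.8 to 0 (-1.66 ± 0.30, a size set by the added 10). Near Hpgds a region at the end of the gene, 24.8 kb from its start, fell from 436, 428 and 355 to 199, 183 and 155 (-1.14 ± 0.12). In contrast, regions near Ptges (9.7 kb downstream, 0 at 0 h and 25.5, 0 and 26.8 at 1 h) and Pla2g4a (10.0 kb upstream, 0 until 18 h and then 20.3, 9.04 and 12) appeared after LPS. Those 36.4 kb downstream of the Pla2g4a start (0.42 ± 0.45 at 18 h, adjusted p = 0.42) and 43.1 kb downstream of the Ptgs2 start (0.58 ± 0.58 at 1 h, adjusted p = 0.38) were not called.

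**Figure D4:**
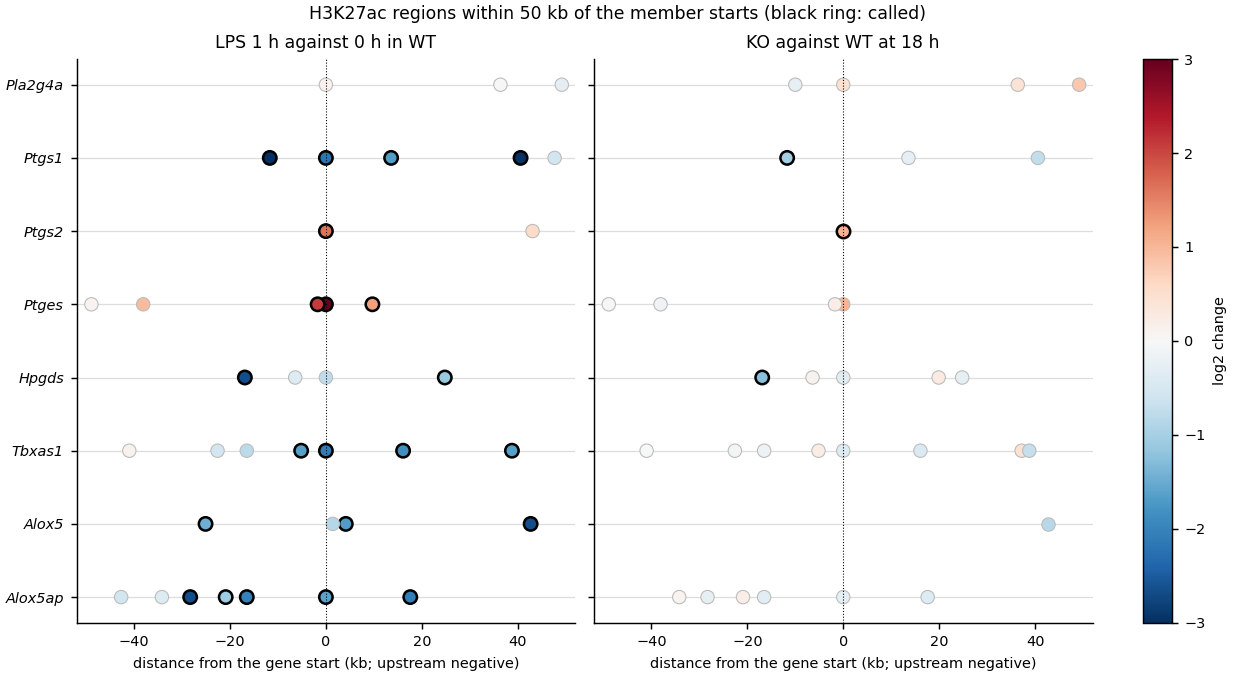
H3K27ac regions by distance from the start of each gene (kb, upstream negative), coloured by log2 change, for LPS 1 h against 0 h in WT (left) and KO against WT at 18 h (right). Black rings mark called regions, 22 of the 37 tested on the left and 3 of 32 on the right (Ptgs1, Ptgs2 and Hpgds).

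Between the genotypes 0 of 36 regions were called at 0 h by limma (7 with an unadjusted p under 0.05; 1.85% of all regions), 2 of 31 at 1 h (14.1%) and 3 of 32 at 18 h (3.74%). In the interactions the calls were 0 of 39 at 1 h (10 with an unadjusted p under 0.05; 3.10%) and 2 of 39 at 18 h (1.60%). The regions called at 18 h lay over Ptgs2 and upstream of Hpgds and of Ptgs1.

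The Ptgs2 region spans 13.3 kb (chr1:150096446-150109790) and covers the whole gene. At 18 h it held 378, 450 and 403 normalized tags in KO against 179, 213 and 179 in WT, all KO libraries being above all WT libraries. At 0 h the order was the opposite, 12.7, 15.7 and 19.8 in KO against 22.5, 27 and 22.4 in WT (-0.39 ± 0.15, not called). The difference at 18 h was 1.07 ± 0.15 (2.1-fold, adjusted p = 3.1e-04), called under all 10 alternatives, and the interaction was 1.46 ± 0.22 (adjusted p = 0.0011), lost without replicate 2. Inputs in the region were 9.36 in KO and 142 in WT. It held 2 matches to the Nur77 site AAAGGTCA (0.15 per kb against 0.0543 over all regions) and 6 to AP-1 (0.45 per kb against 0.384). There were also 20 to NF-kB (1.5 per kb against 1.55) and 42 to C/EBP (3.15 per kb against 2.64).

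The region 16.9 kb upstream of Hpgds (chr6:65161832-65166947), which in WT fell by 2.66 on the log2 scale at 1 h, held 51.6, 78.1 and 73.5 in KO against 163, 170 and 187 in WT at 18 h, and 624, 634 and 608 against 710, 698 and 669 at 0 h. At 1 h KO held 104, 201 and 190 against 111, 87.7 and 107. WT had thus recovered part of the mark by 18 h while the KO libraries were at their lowest then. The difference at 18 h was -1.25 ± 0.19 (2.38-fold lower, adjusted p = 4.6e-04), called under all 10 alternatives, and the interaction -1.10 ± 0.27 (adjusted p = 0.034), called under 6 of 10 and lost without KO at 18 h replicate 1 (-0.94). The KO libraries were deeper than the WT libraries, inputs were 0 in KO and 28.7 in WT, and the part of either in the difference was not tested. The middle 300 bases of this region, the one near any member with the lowest difference at 18 h, are printed on the forward strand of GRCm38.p6, with C/EBP matches (TTNNGNAA) in capitals, letters that 51.4% of all region middles hold.
Hpgds upstream region, chr6:65164239-65164538: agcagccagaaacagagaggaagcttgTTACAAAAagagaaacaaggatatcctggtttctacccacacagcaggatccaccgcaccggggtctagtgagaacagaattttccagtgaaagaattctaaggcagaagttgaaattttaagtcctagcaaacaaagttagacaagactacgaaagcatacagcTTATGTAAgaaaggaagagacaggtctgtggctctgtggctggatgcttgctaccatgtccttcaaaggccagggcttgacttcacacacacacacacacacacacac
The whole region held 14 such matches (2.74 per kb against 2.64 over all regions) and none to AP-1.

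Upstream of Ptgs1 the region named above held 23.8, 59.6 and 56.3 in KO against 101, 116 and 84.1 in WT at 18 h, again without overlap and with inputs of 0 and 6.25. The lowest value came from the library that stood apart, and without it the difference of -1.03 ± 0.21 (adjusted p = 0.0063) was -0.69 and not called, as it was under 5 of 10 alternatives in all. At 1 h the 2 regions called were higher in KO, upstream of Alox5ap by 28.3 kb (chr5:149234139-149236423, with 14.1, 53.3 and 50.5 against 0, 17.8 and 12.2) and of Alox5 by 25.1 kb (chr6:116486263-116487760, with 6.09, 30.3 and 20.2 against 0, 0 and 7.9). Their values overlapped between the genotypes, and the differences of 1.30 ± 0.39 (adjusted p = 0.02) and 1.15 ± 0.29 (adjusted p = 0.0094) were each lost without replicate 2 and without replicate 3, the latter also once libraries were centred. The start nearest to the Alox5 region is that of Olfr211, 1.33 kb away. Without KO at 1 h replicate 1, 3 further regions were called. Inside Alox5 the region 42.7 kb from the start (0, 31 and 42.5 in KO, 10.7, 0 and 0 in WT) went from 1.13 to 1.86, and a region 16.5 kb upstream of Alox5ap (145, 268 and 276 in KO, 138, 122 and 121 in WT) from 0.76 to 1.04. A region 6.4 kb upstream of Hpgds (72.2, 16.1 and 10.2 in KO, 68.5, 38.5 and 26.8 in WT) was lower in KO, from -0.56 to -1.18. The Alox5ap region 28.3 kb upstream held 3 AP-1 matches (1.31 per kb), and in its middle 300 bases 1 was found, as in 14% of all region middles. That stretch is printed on the forward strand with the match in capitals.
Alox5ap upstream region, chr5:149235131-149235430: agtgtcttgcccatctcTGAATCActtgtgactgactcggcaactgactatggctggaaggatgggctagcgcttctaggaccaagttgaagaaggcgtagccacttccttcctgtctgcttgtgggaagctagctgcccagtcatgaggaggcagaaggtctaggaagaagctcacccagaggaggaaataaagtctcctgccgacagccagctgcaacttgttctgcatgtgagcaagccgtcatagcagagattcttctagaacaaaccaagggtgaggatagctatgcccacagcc

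The wider pathway held 53 further phospholipases, prostanoid and leukotriene enzymes, transporters and receptors. Its calls went mostly in the direction of most genes at 1 h and between 1 and 18 h. Once libraries were centred, 49.9% and 46.6% of the calls over all genes in WT were higher in these comparisons. In WT Pol II was called higher over 7 and lower over 26 of the 36 tested at 1 h (median log2 change -1.08, against 86.5% of all genes called and a median of -0.81), higher over 13 and lower over 11 of 36 at 18 h (66.4% of all genes). Between these times it was higher over 22 and lower over 3 of 31 (median 1.06, against 85.0% of all genes and a median of 0.80). In KO the numbers were 8 and 28 of 37 at 1 h (82.3% of all genes), 10 and 18 of 37 at 18 h (69.7%), and 21 and 3 of 28 between them (79.0%). The largest rises at 1 h in WT were those of Fpr2, a receptor for lipoxin A4 and formyl peptides (3.70 ± 0.23), Ltc4s, leukotriene C4 synthase (2.15 ± 0.47), and Ptger2, a prostaglandin E2 receptor (1.44 ± 0.10). The largest falls were those of Pla2g15 (a lysosomal phospholipase, -3.31 ± 0.12), Cyp4f18, which inactivates leukotriene B4 (-2.94 ± 0.21), and Cysltr1, a receptor for cysteinyl leukotrienes (-2.48 ± 0.31). Ltc4s varied at 1 h (735, 704 and 160 normalized tags). At 18 h the largest rises were in Fpr2 (3.89 ± 0.23), Pla2g7, which breaks down platelet-activating factor (3.03 ± 0.13), and Ptgr1, which inactivates prostaglandins and leukotriene B4 (2.93 ± 0.23). The largest falls at 18 h were in Ltb4r2 (-1.94 ± 0.15), Mgst2 (-1.50 ± 0.17) and Mgst3 (-1.11 ± 0.20). Cyp4f18 at 1 h and Mgst2 at 18 h were listed at 0 in WT, and Ltb4r2 at 18 h in all but 1 library, so the sizes of these falls, and their place among the largest, are set by the added 10.

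H3K27ac at the starts of these genes was called higher at 7 and lower at 14 of 30 at 1 h in WT (54.9% of all starts called), and higher at 8 and lower at 9 of 30 at 18 h (49.8%). The starts of Alox12 (2.83 ± 0.24), Fpr2 (2.04 ± 0.19) and Ptger4 (0.99 ± 0.18) rose most at 1 h, and those of the leukotriene B4 receptors Ltb4r2 (-2.27 ± 0.25) and Ltb4r1 (-2.11 ± 0.20) and of Ggt5 (-1.85 ± 0.22) fell most. Alox12 was listed at 0 in WT before LPS, so its changes are set by the added 10. At 18 h the largest changes were rises at Fpr2 (2.23 ± 0.19), Pla2g7 (1.67 ± 0.10) and Alox12 (1.54 ± 0.24) and falls at Ltb4r1 (-2.22 ± 0.20), Ltb4r2 (-2.22 ± 0.25) and Cyp4f18 (-1.01 ± 0.21).

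Between the genotypes, Pol II over the further genes was called higher in KO for 0 and lower for 2 of 38 at 0 h (Cysltr2 and Mgst2, -0.97 ± 0.17; 6.81% of all genes called). It was higher for 7 and lower for 3 of 25 at 1 h (44.9%), and higher for 1 and lower for 7 of 31 at 18 h (20.2%). Over all genes, too, most calls were higher in KO at 1 h (83.3%) and fewer were at 18 h (36%). At 1 h the phospholipases Pla2g15 (0.85 ± 0.12), Pla2g7 (0.69 ± 0.13) and Pla2g6 (0.52 ± 0.11), Mgst3 (0.72 ± 0.20), the reductases Ptgr1 (0.58 ± 0.23) and Ptgr2 (0.32 ± 0.10) and the transporter Abcc4 (0.48 ± 0.13) were higher in KO. The receptors Ptgdr2 (-0.58 ± 0.10) and Ptger1 (-0.47 ± 0.12) were lower, as was Cysltr2. At 18 h Abcc4, which exports prostaglandin E2, was higher (0.56 ± 0.13). The genes that were lower were the prostaglandin E2 receptors Ptger2 (-0.88 ± 0.10) and Ptger4 (-0.32 ± 0.07), Pla2g15 (-0.59 ± 0.12), Ggt5 (-0.56 ± 0.12), Pla2g7 (-0.47 ± 0.13), Ptgr2 (-0.29 ± 0.10) and Cysltr2. With inputs subtracted 6 of the 10 calls at 1 h were kept (lost for Mgst3, Cysltr2, Pla2g7 and Ptgr1) and 4 of the 8 at 18 h, where Ptger4 (-0.13), Ggt5 (0.15), Pla2g7 (0.09) and Ptgr2 (0.03) were no longer called. The inputs at 18 h were 288 in WT and 13.2 in KO over Pla2g7, and 95.8 and 0 over Ptgr2. With libraries centred Mgst3, Ptgr2, Abcc4 and Ptgr1 were lost at 1 h and Ptgr2 at 18 h.

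Ptger2 at 18 h held 214, 187 and 241 normalized Pol II tags in KO against 432, 404 and 369 in WT, so that the receptor gene stood lower in KO in all libraries while Ptgs2 stood higher (adjusted p = 8.0e-06), with inputs of 11.4 and 72.3 (-0.68 once subtracted, still called). Ptger4 held 268, 242 and 255 against 310, 325 and 330 (adjusted p = 0.0048), with inputs of 0 and 41.6. The interaction at 18 h was called for both (-0.94 ± 0.14, adjusted p = 3.2e-04, and -0.43 ± 0.11, adjusted p = 0.011). Among the 38 genes tested it was called for 7 lower and 2 higher at 18 h (14.1% of all genes), also for Pla2g7 (-0.73 ± 0.18), Pla2g15 (-0.71 ± 0.16), Ggt5 (-0.61 ± 0.17), Ptgr2 (-0.45 ± 0.14), Cysltr2 and Abcc4 (0.63 ± 0.19). Of these 9, 5 were lost with inputs subtracted, namely Ggt5 (0.40), Ptgr2 (-0.15), Cysltr2 (-0.14), Ptger4 (-0.24) and Pla2g7 (0.55), Ggt5 and Ptgr2 also with libraries centred, and Ptgr2 also without WT at 0 h replicate 1. At 1 h it was called for 4 higher and 2 lower of 38 (17.7% of all genes), among them Mgst3 (0.99 ± 0.28), Pla2g15 (0.74 ± 0.16), Abcc4 (0.55 ± 0.19), Ptger1 (-0.64 ± 0.17) and Ptgdr2 (-0.46 ± 0.15). Mgst3 was lost with inputs subtracted or libraries centred, Abcc4 with libraries centred and Ptgdr2 without WT at 0 h replicate 1. The remaining call at each time is Mgst2, at 0 in all libraries after LPS, whose term only restates its difference at 0 h.

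Cysltr2, a receptor for cysteinyl leukotrienes, was listed at 0 in all 9 KO libraries of both antibodies and above 0 in all WT libraries: 19.9, 17.2 and 13.6 normalized Pol II tags before LPS, then 13.4, 10.1 and 19.8 after 1 h of it and finally 49.1, 56 and 60.5 after 18 h. The same split was seen at its start in H3K27ac, with 26.9, 26.8 and 32.3 in WT before LPS, then 45.9, 58.8 and 35.2 after 1 h of it and finally 56.9, 47.9 and 59.6 after 18 h. Inputs over the gene reached 18.5 in KO and 35.3 in WT. The adjusted p was 3.5e-06 at 0 h, 3.0e-06 at 1 h and 3.7e-10 at 18 h for Pol II, and no fold is given against a group at 0. In H3K27ac the other genes called between the genotypes were, at 1 h, Pla2g2e (1.11 ± 0.25), Ltb4r1 (0.85 ± 0.20), Cyp4f18 (0.79 ± 0.21) and Cbr1 (0.69 ± 0.22), higher in KO, and Alox12 (-0.99 ± 0.24), Fpr2 (-0.87 ± 0.19) and Ptges2 (-0.79 ± 0.22), lower, and at 18 h Mgst2 (-1.14 ± 0.28). With Cysltr2 these are 8 of 29 starts at 1 h (18.5% of all starts) and 2 of 29 at 18 h (3.35%). All 8 stayed called without KO at 1 h replicate 1, which stood apart at Ptges2 (443 against 191 and 179; -1.19 without it) and Pla2g2e (24.8 against 67.9 and 75.2; 1.52 without it). Mgst2 was -1.56 without KO at 18 h replicate 1 and was lost with inputs subtracted (-0.95), and Cbr1 was lost with libraries centred (0.60). In the H3K27ac interactions 0 of 31 genes were called by limma at 1 h (9 with an unadjusted p under 0.05) and 0 of 31 at 18 h (8).

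By the root mean square difference between centred group means (log2 scale, 6 groups, 13476 candidate genes), the 2 genes whose Pol II pattern was closest to that of Ptgs2 were Ifit1 (0.294) and Aoah (0.367), those closest to Pla2g4a were Syn3 (0.125) and C2 (0.183), and those closest to Ptges were Sp100 (0.0794) and Oas1a (0.0957). Alox5ap was nearest to Chrm4 and Mdh1 (0.126 each). Alox5 was nearest to Selenom (0.107) and Hspa12b (0.13), and Ptgs1 to Slc14a1 (0.0203) and Lrp2 (0.0222), both pairs at low values. These distances are descriptions over 6 means from the same libraries, and no shared function or control is implied.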

How the data were processed

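The deposited values are a signal, normalized tags per 10 M (mega) tags of a library, in broad regions called library by library without an input control. Per the labels and the methods, the authors used Skewer for trimming and HISAT2 2.1.0 for alignment to mm10, removed duplicates and ran HOMER with windows of 500 bp, a Poisson p of 0.001 and stitching below 1000 bp; the HOMER version is not given in the sources used here. No depth-based interval was set on single values, since only normalized tags in called regions were used. Here regions were shared out by overlap over principal transcripts of GENCODE vM21 (bedtools 2.31.1, pandas 2.3.3, numpy 2.4.6, Python 3.11.15, figures with matplotlib 3.10.9), and H3K27ac regions of the 18 libraries were merged. Log2(value + 10) was fitted with limma 3.58.1 (R 4.3.3, moderated variance with an intensity trend) with 6 group means over the 18 libraries of an antibody, and Benjamini-Hochberg adjustment ran over all genes or regions tested, a gene or region being tested when 1 of the groups compared had values above 0 in 2 or more of its 3 libraries. The fit was tested on simulated data. Fitted folds are on the log2(value + 10) scale and understate changes of low genes. The 8 members were always named, pathway genes where called between genotypes or among the 3 largest WT changes per direction, and regions where called between genotypes or among the 2 largest WT changes per member away from its start. For each member, the 2 genes closest to it in pattern were named, except for Hpgds and Tbxas1, for which this result is not reported here, nor is 1 of the marker lists. Members, lists and tests were chosen with earlier results of these data known.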

Additional observations from a re-analysis of the deposited data

Results flagged for a closer look

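These results are listed because the response to LPS, or the genotype difference, itself differed in a test of that difference in limma, with adjusted p-values as given for each in the results. In Pol II the genotype by LPS term at 1 h was -0.38 for Pla2g4a and 0.97 for Tbxas1 on the log2 scale. At 18 h it was 1.65 for Ptgs2, 0.75 for Pla2g4a and -0.61 for Alox5ap. The genotype difference at 18 h minus that at 1 h was 2.04 for Ptgs2, 1.13 for Pla2g4a, -1.24 for Tbxas1, -0.68 for Alox5ap and -0.41 for Hpgds. In H3K27ac the term at 18 h was 1.46 for the region over Ptgs2 and -1.10 for the region 16.9 kb upstream of Hpgds. The terms share their 0 h libraries, and the Pla2g4a values at 0 and 1 h lay below their inputs.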

How the results depend on the processing

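Of 204 recomputed counts of Pol II members called 184 stayed within 1.5 times, as did 165 of 187 for H3K27ac starts and 91 of 110 for regions. For members in Pol II, requiring values above 0 in every library gave 5 called at 1 h in WT and 4 in KO. Counting only within 500 bp of the start gave members called of 5 (1 h against 0 h in WT), 3 (18 h against 0 h and 18 h against 1 h, in WT and in KO), 2 (KO against WT at 1 h), 1 (at 18 h), 1 (each interaction) and 2 (the difference at 18 h against 1 h). For KO against WT at 0 h the members called in Pol II were 1 with centring, 1 with quantile normalization, 2 with inputs subtracted and 0 to 1 leaving out libraries, and for the interaction at 1 h 4 with inputs subtracted and 1 to 2 leaving out libraries.

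For members in H3K27ac at starts, the stricter filter gave 4 at 1 h in WT and 0 for KO against WT at 1 h, fitting only the groups compared gave 2 between 1 and 18 h in KO and 0 for KO against WT at 1 h, outermost starts gave 0 there, and inputs subtracted gave 2 at 0 h, 2 at 1 h, 1 at 18 h and 1 for the interaction at 18 h. Leaving out libraries gave 0 to 3 at 1 h, 0 to 3 at 18 h, 0 to 3 for the interaction at 1 h and 0 to 1 for that at 18 h. For regions near members the stricter filter gave 12, 6 and 9 in WT (1 h, 18 h, 18 h against 1 h), 9 (18 h) and 4 (18 h against 1 h) in KO, 0 for KO against WT at 1 h and 1 for the interaction at 18 h. A common density floor gave 1 for KO against WT at 0 h and centring 1 at 1 h. Leaving out libraries gave 4 to 12 between 1 and 18 h in KO, 0 to 5 for KO against WT at 1 h, 0 to 6 for the interaction at 1 h and 0 to 2 for that at 18 h.

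Directions that turned were, within 500 bp of the start in Pol II, Pla2g4a at 18 h in WT (-0.25 against 0 h, -0.55 against 1 h), Alox5ap at 18 h against 0 h in KO (0.25), in KO against WT at 18 h (0.37), in the interaction at 18 h (0.01) and in the difference at 18 h against 1 h (0.30), and Hpgds between 1 and 18 h in KO (-0.06). With inputs subtracted they were Alox5 at 18 h in KO, in KO against WT at 18 h and in the difference at 18 h against 1 h (1.44 each), Tbxas1 in KO against WT at 18 h (0.18) and Ptgs1 in KO against WT at 0 h (-0.52) and both interactions (0.52). Under quantile normalization they were Alox5ap at 18 h in WT (-0.16) and Ptges between 1 and 18 h in WT (-0.36), and with centring Ptges there (-0.21) and Hpgds in KO against WT at 1 h (-0.25). Over the whole annotated gene, chosen after seeing the data, they were Ptges between 1 and 18 h (-1.01 in WT, -0.76 in KO) and in KO against WT (0.14 at 1 h, 0.40 at 18 h). At the outermost starts H3K27ac turned for Tbxas1 (0.15 and 0.09 at 1 h, -0.39 and -0.59 between 1 and 18 h, WT and KO) and Ptges between 1 and 18 h (0.56 and 0.70). With the density floor the small region upstream of Tbxas1 was at -1.57 for KO against WT at 0 h. The cause was not tested for any of these.

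Replicate numbers did not pair the libraries (Pol II correlations -0.077 to 0.111, 1 of 45 over 0.1; H3K27ac -0.43 to 0.083). With the replicate block every count of members and nearby regions stayed within 1.5 times, for example 4 Pol II members called in KO against WT at 1 h and 4 at 18 h, while over all genes the H3K27ac interaction at 1 h went from 62 to 28 calls. Centring moved the share of calls that were higher, in Pol II from 77.7% to 46.6% (WT, 18 h against 1 h), 25.2% to 48.2% (KO, 1 h), 69.1% to 48.7% (KO, 18 h against 1 h), 77.1% to 31.3% and 33% to 61.5% (interactions) and 17.2% to 68.1% (difference at 18 h against 1 h), and in H3K27ac starts from 60.1% to 44.8% (KO against WT at 1 h) and 29.8% to 52% (18 h). Values at 0 are below the region search, and the part of depth was not tested for the low members (Ptgs1, Ptges, Alox5), and 3 libraries per group and 1 input limit the precision of all.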
